A study of Homo sapiens with 6 samples.

Results

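Pleiotrophin (PTN), midkine (MDK), the 4 syndecans SDC1 to SDC4 and the receptors PTPRZ1 and ALK were followed in K562 cells with wild-type RUNX1 and in K562 cells with RUNX1 R320*. These 8 genes, of 28395 in the table of normalized counts, were picked by name as a ligand and receptor family, with the difference between the genotypes already known. Their levels and fold changes are therefore given as a description, with no test. K562 is a human cell line, grown from a chronic myeloid leukaemia and able to take on erythroid features. RUNX1 is a DNA-binding transcription factor of blood cells, and the asterisk marks a premature stop codon at residue 320 of the protein. RNA was sequenced from 3 libraries labelled WT and 3 labelled R320*, all grown in the same medium, with no drug or time course. How R320* was introduced, whether it replaced the gene's own copies or was added, and whether the line is 1 clone is not given in the sources used here. The labels also name no separate cultures, so a spread or a p-value covers only the difference between these libraries, which may be technical.

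PTN and MDK are small secreted, heparin-binding growth factors that form a family of their own. They bind the sugar chains of proteoglycans, which are heparan sulfate on syndecans and chondroitin sulfate on the receptor phosphatase PTPRZ1. PTN binding to PTPRZ1 is known to reduce its phosphatase activity, which leaves more phosphate on tyrosines of its substrates. ALK is a receptor tyrosine kinase that has been linked to both ligands, and ALKAL1 and ALKAL2 are its high-affinity ligands. PTN and PTPRZ1 are best known from the developing nervous system, and MDK from embryos and from many tumours.

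The DNA just before the annotated starts of PTN and PTPRZ1 is shown because these genes had the largest differences in opposite directions, and that of SDC4 is shown as a syndecan with 1 annotated start. Each sequence is the 250 bases before the start in the RefSeq promoter table for GRCh38.p14, read 5′ to 3′ on the strand of the gene. Lower case is plain sequence, and capitals mark CG dinucleotides.
PTN, chr7:137343734-137343983, minus strand: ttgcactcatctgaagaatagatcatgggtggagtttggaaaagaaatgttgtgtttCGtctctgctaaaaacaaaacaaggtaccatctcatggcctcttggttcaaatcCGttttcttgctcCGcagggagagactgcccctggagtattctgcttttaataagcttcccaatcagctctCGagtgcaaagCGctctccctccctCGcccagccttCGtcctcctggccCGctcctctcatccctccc
PTPRZ1, chr7:121872911-121873160, plus strand: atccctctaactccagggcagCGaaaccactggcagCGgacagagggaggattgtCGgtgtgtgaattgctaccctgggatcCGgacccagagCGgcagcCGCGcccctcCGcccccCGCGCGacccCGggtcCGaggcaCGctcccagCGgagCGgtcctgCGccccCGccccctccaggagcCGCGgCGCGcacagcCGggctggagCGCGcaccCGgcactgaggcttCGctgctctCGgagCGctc
SDC4, chr20:45348425-45348674, minus strand: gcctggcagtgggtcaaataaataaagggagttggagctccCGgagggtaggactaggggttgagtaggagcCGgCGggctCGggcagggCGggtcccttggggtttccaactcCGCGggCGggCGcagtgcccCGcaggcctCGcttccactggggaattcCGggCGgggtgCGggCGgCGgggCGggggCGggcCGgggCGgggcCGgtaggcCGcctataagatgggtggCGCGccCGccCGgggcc
The PTN window held 8 CG dinucleotides and was 50.4% G or C. The PTPRZ1 window held 29 and was 73.2% G or C, and the SDC4 window held 26 and was 73.6% G or C. Over 34786 promoter windows of the same length the median was 11, with quartiles of 3 and 23. RefSeq entries were found for 6 of the 8 genes, with 8 start sites in all, and MDK and SDC2 had none in the table. The SDC3 window held 37 CG dinucleotides, the first SDC1 window 23 and the first ALK window 24. The RUNX core letters TGTGGT and TGCGGT were searched on both strands. The PTN, PTPRZ1, SDC3, SDC4 and ALK windows held neither, and the second SDC1 start held TGTGGT. Either was present in 16.3% of all windows. The letters GGGCGG, a GC box, were present on 1 strand or the other before PTPRZ1, SDC1, SDC3, SDC4 and the first ALK start but not before PTN, against 42.6% of all windows. A match or its absence in these letters describes the window only.

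Read numbers are not in the deposited tables and were inferred by taking the smallest value of each library as 1 read. On that basis the libraries held between 29058471 and 31306435 assigned reads, and 1 read was worth 0.953 to 1.05 normalized counts. All 10 K562 erythroid markers had reads in every library, with a summed level of 111815 to 116244 normalized counts in WT and 114986 to 138966 in R320*. The globin HBG2, whose reads may be shared with its near-identical copy HBG1, made up the largest part of this sum, with means of 47820 and 60335. By the limma test described next, 6 of the 10 rose and 3 fell. The transcription factors NFE2 and GATA1 fell from 11903 to 5972 and from 8964 to 6124, and TAL1 rose from 3117 to 4663. All 7 neural and glial markers, from the tissue where PTN and PTPRZ1 are best known, were below 10 in every library (summed 13.6 to 16.0 in WT and 7.94 to 16.7 in R320*), and S100B and OLIG2 were at 0. Of the endothelial markers CDH5 and KDR were at 0 (summed 53.3 to 58.8 in WT and 49.6 to 62.9 in R320*). Epithelial markers summed to 16069 to 16263 in WT and 17852 to 18380 in R320*, and 2 of the 5 tested rose and 2 fell. EPCAM rose from 2326 to 5150 and KRT19 from 1923 to 6041, while KRT8 fell from 4820 to 2417 and KRT18 from 7057 to 4504. Fibroblast markers summed to 3434 to 3520 in WT and 2711 to 2930 in R320*, and of the 3 tested 1 rose and 1 fell. COL1A2, which made up most of this sum, fell from 3388 to 2725. COL1A1 rose from 64.7 to 101 but was not called in RPKM. Lymphoid markers summed to 823 to 860 in WT and 558 to 624 in R320*, with CD2 at 0. Monocyte and granulocyte markers summed to 54.4 to 69.8 in WT and 13.7 to 17.9 in R320*, with ELANE and S100A8 at 0. LYZ, the 1 gene of this list tested, made up most of the WT sum and fell from 48.0 to 0.327. Its mean RPKM was 6.32 in WT and 4.61 in R320*, a difference that was not called. CSF1R, not tested, went the other way, from 1.35 to 6.17. The part of these lists in the results below was not tested. In bulk RNA, fewer cells with a transcript and less of it per cell cannot be told apart.

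Differences across all genes were fitted with limma on log2(normalized count + 1), over the genes that reached 10 normalized counts in 3 or more libraries, and a gene was called at a Benjamini-Hochberg adjusted p below 0.05. Of 14299 tested genes 53.7% were called, 26.4% higher and 27.4% lower in R320*. Among the 8 genes of the family, 7 were tested and 6 were called, 5 higher and 1 lower. PTN passed the filter through R320* and PTPRZ1 through WT, so these counts carry no support. In 6 genes every R320* library lay above every WT library, as in 29.6% of all tested genes. In 1 gene every R320* library lay below, and separation in either direction was found in 59.8% of all tested genes.

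**Figure D1:**
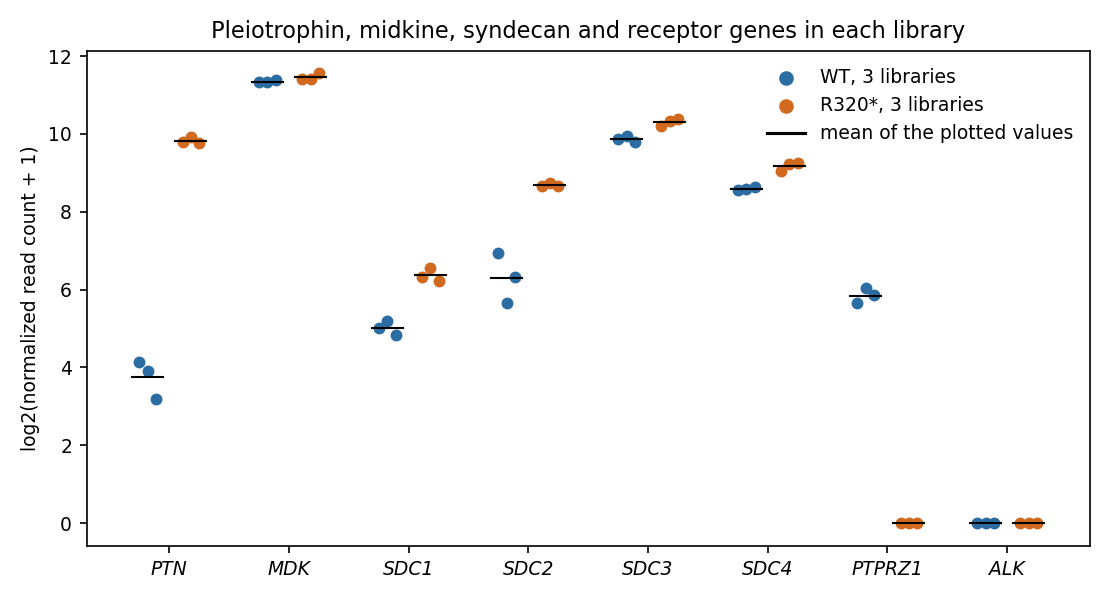
Normalized read counts of the 8 genes, plotted as log2(count + 1), in each of the 3 WT (blue) and 3 R320* (orange) libraries, with a point per library and a line at the mean of the plotted values. Before the log, PTN lies at 8.09 to 16.7 in WT and 874 to 965 in R320*, PTPRZ1 is at 0 in R320*, and ALK is at 0 in all 6 libraries.

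The ligands had different patterns: PTN was near its floor in WT and abundant in R320*, while MDK was abundant in both. PTN (Entrez 5764, chromosome 7, 137227341 to 137343733 in GRCh38.p14) had 16.7, 14.0 and 8.09 normalized counts in WT libraries 1 to 3. It had 880.4, 965 and 874 in R320* libraries 1 to 3. The groups were far apart, and the lowest R320* library stood above the highest WT library. The means were 12.9 ± 4.41 (SD, n = 3) and 907 ± 51.1 (SD, n = 3), a 70.1-fold ratio, and the fitted log2 difference was 6.08 (SE 0.23). This was the eighth highest of the 14299 fitted differences, on a scale where the added count shrinks low genes.

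MDK (Entrez 4192, chromosome 11, 46380784 to 46383837) had 2561, 2572 and 2656 normalized counts in WT and 2726, 2713 and 3014 in R320*. The libraries did not overlap, but the gap between the groups was small beside the spread within R320*. Means were 2596 ± 52.3 and 2818 ± 170.4 (SD, n = 3 each), a ratio of 1.09, with a log2 difference of 0.12 (SE 0.05). In the deposited RPKM table, where values are scaled by gene length and library size, MDK was 99.9, 96.8 and 100.6 in WT and 102, 94.9 and 100.3 in R320*. On that scale its genotypes overlapped, and the means were 99.1 ± 2.03 and 99.1 ± 3.71. The annotated span of MDK shares 49 bases with CHRM4, a muscarinic receptor gene with at most 23.5 normalized counts in any library.

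Per length, MDK was the more abundant ligand in every library, by very different margins. PTN was 0.432, 0.368 and 0.141 RPKM in WT and 17.3, 19.4 and 17.2 RPKM in R320*. The ratio of MDK to PTN in RPKM was 231, 263 and 714 in the WT libraries. In the R320* libraries it was 5.90, 4.90 and 5.84.

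The receptor phosphatase PTPRZ1 was detected in WT and had no read in R320*. PTPRZ1 (Entrez 5803, chromosome 7, 121873161 to 122062036) had 49.2, 64.8 and 56.6 normalized counts in WT, a mean of 56.9 ± 7.82 (SD, n = 3), and 0 in the 3 R320* libraries. With a floor of 3 inferred reads in each R320* library, its mean was at least 19.4-fold lower in R320*, a bound that covers counting error only. In RPKM it was 0.569, 0.389 and 0.357 in WT and 0 in R320*. ALK (Entrez 238, chromosome 2, 29192774 to 29921586) had no read in any of the 6 libraries of either table, so it was not tested and no fold is given.

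All 4 syndecans were higher in R320*, by amounts from 1.35-fold to 4.94-fold. Syndecans are transmembrane cores that carry heparan sulfate, and SDC1, the epithelial and plasma cell member, can also carry chondroitin sulfate. SDC2 (Entrez 6383, chromosome 8, 96493813 to 96611790), known from mesenchymal cells, had 121, 49.9 and 78.9 normalized counts in WT and 402, 426 and 407 in R320*. Its WT libraries were spread more widely than its R320* libraries, yet all 3 lay far below them. Means were 83.4 ± 36.0 and 412 ± 12.5 (SD, n = 3 each), a 4.94-fold ratio, and the log2 difference was 2.38 (SE 0.23). SDC1 (Entrez 6382, chromosome 2, 20200797 to 20225475) had 31.4, 35.9 and 27.3 in WT and 79.4, 92.3 and 73.4 in R320*. It was the least abundant syndecan in both genotypes, with no overlap between them. Its means were 31.5 ± 4.30 and 81.7 ± 9.66, a 2.59-fold ratio, and the log2 difference was 1.35 (SE 0.26).

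SDC3 and SDC4 were already abundant in WT and differed less. SDC3 (Entrez 9672, chromosome 1, 30869466 to 30909735), known as the neural syndecan and a PTN receptor, had 935, 988 and 892 normalized counts in WT and 1179, 1285 and 1339 in R320*. Each R320* library lay above each WT library, and the means were 938 ± 48.1 and 1267 ± 81.6. The ratio was 1.35 and the log2 difference 0.43 (SE 0.07). SDC4 (Entrez 6385, chromosome 20, 45325288 to 45348424), the broadly expressed focal adhesion member, had 376, 383 and 396 in WT and 529, 595 and 609 in R320*. Its groups were also apart, with means of 385 ± 10.6 and 578 ± 42.5. The ratio was 1.50 and the log2 difference 0.58 (SE 0.09).

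Compared per length, the make-up of the syndecan RNA differed between the genotypes. The summed RPKM of the 4 syndecans was 12.5, 12.1 and 13.8 in WT and 27.4, 25.6 and 25.4 in R320*, a 2.04-fold ratio of means. SDC2 made up 9.73% ± 4.21 of this sum in WT and 35.1% ± 2.41 in R320* (SD, n = 3 each). SDC3 made up 44.1% ± 2.75 and 28.6% ± 0.319, and SDC4 43.7% ± 1.29 and 33.1% ± 3.25. SDC1 stayed a minor part, at 2.53% in WT and 3.18% in R320*. So SDC3 and SDC4 took smaller shares in R320* although both had more RNA there.

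**Figure D2:**
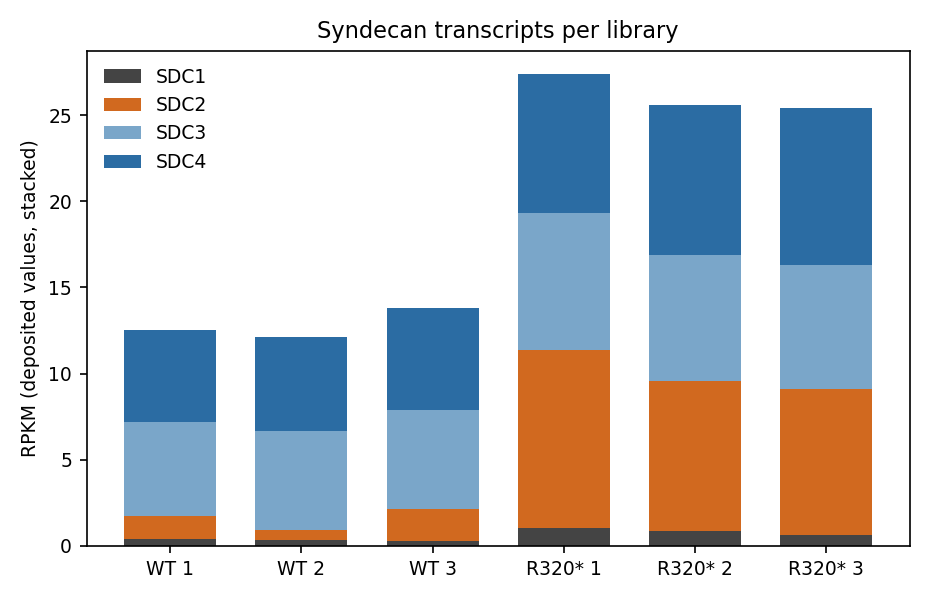
Deposited RPKM of SDC1 to SDC4, stacked in 1 bar for each of the 6 libraries. SDC3 and SDC4 fill most of the WT bars, and the SDC2 block is the one that differs most in the R320* bars, whose sums are 25.4 to 27.4 against 12.1 to 13.8.

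The order of levels per length in WT was MDK, then SDC3 and SDC4, whose libraries overlapped, then SDC2, and then PTPRZ1, SDC1 and PTN, which overlapped, with ALK at 0. In R320* it was MDK, PTN, then SDC4 and SDC2, which overlapped, then SDC3, which lay below every SDC4 library, then SDC1, with PTPRZ1 and ALK at 0. PTN thus moved from among the lowest detected genes of the family to the second place.

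The deposited tables gave the same direction for PTN and the 4 syndecans, and MDK, higher in normalized counts, had equal means in RPKM. Of 17769 genes tested in RPKM, 31.9% were called, and 5 of the 6 family genes tested there were called. PTN and SDC1 passed the filter of 0.5 RPKM in 3 libraries only through R320*, so this count carries no support either. PTN was 57.2-fold higher in R320* by mean RPKM (0.314 ± 0.153 against 17.9 ± 1.25). SDC2 was 7.23-fold higher by mean RPKM (1.27 ± 0.620 against 9.19 ± 1.03), a larger ratio than in normalized counts. SDC1 was 2.59-fold, SDC4 1.54-fold and SDC3 1.33-fold higher in RPKM. One RPKM of SDC2 stood for 65.6 normalized counts in WT and 44.8 in R320*, and for PTN these were 41.2 and 50.5, so the tables did not scale alike for those genes.

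**Figure D3:**
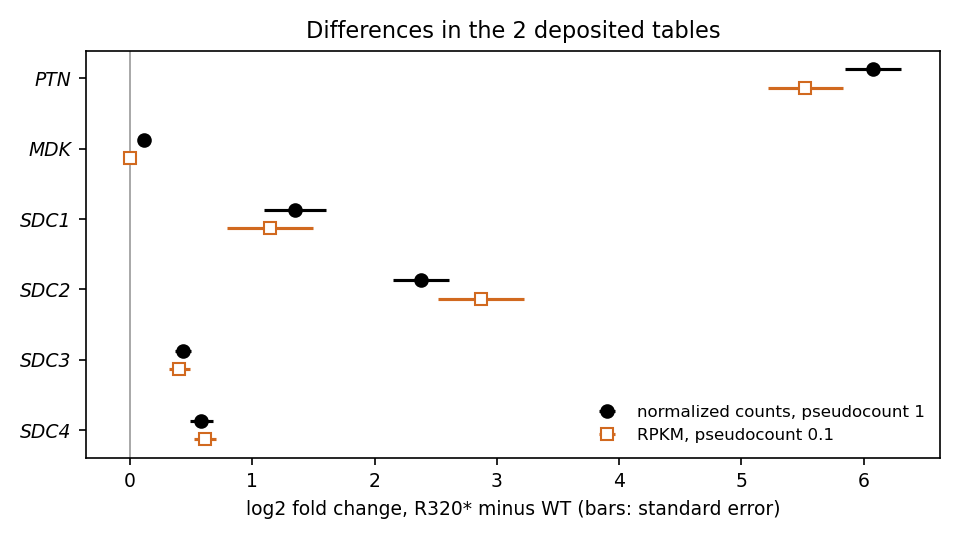
Difference between R320* and WT, in log2 units, for the 6 genes of the family tested both in normalized counts and in RPKM. Bars are standard errors. PTPRZ1, which was lower in R320*, and ALK were not tested in RPKM and are not shown. PTN and SDC2 lie highest in both tables, and MDK lies at 0.12 in counts and at 0 in RPKM.

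The sugar chains that bind PTN and MDK are built by enzymes whose genes moved in both directions. Levels of the listed genes are mean normalized counts of 3 libraries, and the standard errors of the log2 differences of those named lay between 0.03 and 0.51, the value of ALKAL2. Of 31 heparan sulfate genes 19 were tested, and 7 rose, 6 fell and 6 were not called, with a median log2 difference of 0.06 against 0.0062 over all tested genes. The deacetylase and sulfotransferase NDST1, which starts sulfation of the chain, rose from 1981 to 3014 normalized counts (log2 0.60, limma adjusted p = 5.66e-08). B3GALT6, an enzyme of the linker to the core protein, rose from 787 to 1053 (log2 0.42, limma adjusted p = 0.000114) but was not called in RPKM. EXTL1 rose from 64.9 to 102 (limma adjusted p = 0.0196), a call that was lost without WT replicate 2 or 3 or R320* replicate 2 or 3 and turned to −0.11 in RPKM. Heparanase, HPSE, which cuts heparan sulfate, fell from 169 ± 11.9 to 20.8 ± 8.21 (log2 −3.04, limma adjusted p = 1.99e-07). The epimerase GLCE fell from 309 to 155 and the 3-O-sulfotransferase HS3ST3A1 from 869 to 497 (log2 −0.99 and −0.81). The count of heparan sulfate genes that rose was 4 without WT replicate 2, 4 without R320* replicate 2 and 3 in RPKM. EXT1, which works with EXT2 to extend the chain, had no read in 5 libraries and 1.91 normalized counts in R320* library 3, and it was singled out after its values were seen. In the RPKM table EXT1 reached at most 0.107.

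Of 16 chondroitin sulfate genes, the chain type carried by PTPRZ1, 10 were tested, and 3 rose, 4 fell and 3 were not called (median log2 difference 0.06). CHST3, a chondroitin 6-O-sulfotransferase, rose from 115 ± 16.8 to 703 ± 92.1 normalized counts (log2 2.60, limma adjusted p = 1.11e-10). The 4-O-sulfotransferase CHST11 fell from 4113 to 2492 (log2 −0.72, limma adjusted p = 6.56e-10). The polymerase CHSY1 fell from 1111 to 563 (log2 −0.98), and CSGALNACT2, which starts the chain, fell from 279 to 190 (log2 −0.56) but was not called in RPKM. CHPF rose from 1655 to 1855 (log2 0.17, limma adjusted p = 0.0199), a call lost without WT replicate 1 or 2 or R320* replicate 3, and it was −0.012 in RPKM. The number of these genes that rose was 1 without WT replicate 2 and 1 in RPKM.

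Of 20 other proteoglycan cores 11 were tested, and 7 rose, 2 fell and 2 were not called, with a median log2 difference of 0.59. Perlecan, HSPG2, a large heparan sulfate proteoglycan of basement membranes, rose from 6233 ± 295 to 14245 ± 204 normalized counts (log2 1.19, limma adjusted p = 2.86e-13). The glypican GPC6 rose from 25.3 ± 11.0 to 182 ± 55.2 (log2 2.83, limma adjusted p = 5.75e-07), and CSPG5, a neural chondroitin sulfate proteoglycan, from 369 to 738 (log2 1.00). CD44, the hyaluronan receptor, fell from 408 ± 23.4 to 46.0 ± 15.3 (log2 −3.18, limma adjusted p = 3.62e-09). BCAN, brevican, fell from 1892 to 1642 (log2 −0.20, limma adjusted p = 0.0029), but its mean RPKM was 0.277 in WT and 0.481 in R320*. In RPKM 1 gene of this list fell.

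Another list held 18 genes, taken as other receptors for PTN or MDK, ligands for ALK or genes related to them. Of these 15 were tested, and 6 rose, 4 fell and 5 were not called (median log2 difference 0.13). A place in this list, such as that of PTPRB or LTK, does not mean that the gene binds PTN or MDK. The integrin pair αvβ3, a PTN receptor, split: ITGAV rose from 1764 to 2186 (log2 0.31, limma adjusted p = 0.00029) and ITGB3 fell from 409 ± 26.2 to 36.9 ± 12.9 (log2 −3.49, limma adjusted p = 1.44e-09). PTPRB, a receptor phosphatase of vessel cells, fell from 423 ± 27.0 to 99.96 ± 9.47 (log2 −2.07, limma adjusted p = 1.93e-09). Nucleolin, NCL, which can bind both ligands at the cell surface, rose from 19954 to 29155 (log2 0.55), and PTPRS, a phosphatase that binds both sugar chains, from 3869 to 5323 (log2 0.46). NOTCH2, which has been reported to bind MDK, rose from 2056 to 4789 (log2 1.22). Its log2 difference was 0.72 in RPKM, where the call was lost without the filter on low values. LRP1, an endocytic receptor for MDK, fell from 169 to 110 (log2 −0.61, limma adjusted p = 0.00339). It was below the filter in RPKM and not called there without it. ALKAL1, like ALK itself, had no read in any library. ALKAL2 had 6.09 in WT and 14.4 in R320* (log2 1.09, limma adjusted p = 0.0870), which was not called. LTK, the kinase closest to ALK, had 183 and 150 (log2 −0.28, limma adjusted p = 0.215). LRP1B, chosen after its values were seen, had 32.5 in WT and 0 in the R320* libraries, at least 11.1-fold lower on the same floor. In RPKM 2 genes of this list fell.

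Of 16 genes listed as substrates and adaptors of PTPRZ1 and ALK, 14 were tested. Among them 5 rose, 6 fell and 3 were not called (median log2 difference −0.08). FYN, a Src-family kinase and PTPRZ1 substrate, fell from 1384 ± 48.6 to 95.6 ± 21.4, or 14.5-fold (log2 −3.86, limma adjusted p = 6.69e-13). The scaffold MAGI1, also a PTPRZ1 substrate, rose from 2212 to 6649 (log2 1.59, limma adjusted p = 2.10e-14). Phospholipase PLCG1 rose from 3218 to 5439 (log2 0.76) and the adducin ADD1 from 5929 to 7149 (log2 0.27). Phosphorylation was not measured, so ADD1 is given as a listed gene and not as a shown substrate of PTPRZ1. The adaptors FRS2, from 430 to 259, and IRS1, from 479 to 315, fell (log2 −0.73 and −0.61), though neither was called in RPKM.

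Of 15 syndecan partners and sheddases 12 were tested, and 4 rose, 3 fell and 5 were not called (median log2 difference −0.03). EZR, ezrin, which links membrane proteins to actin, fell from 5185 to 2452 (log2 −1.08, limma adjusted p = 1.38e-12). GIPC1, a PDZ protein that binds SDC4, fell from 1171 to 902 (log2 −0.37), and the sheddase MMP14 from 270 to 179 (log2 −0.60), the last not called in RPKM. CASK, a scaffold that binds syndecan tails, rose from 116 to 175 (log2 0.60) but was not called in RPKM. Cortactin, CTTN, rose from 6641 to 7201 (log2 0.12, limma adjusted p = 0.0142), a call lost without WT replicate 1 or R320* replicate 3. In RPKM 1 gene of this list rose.

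Of 19 other heparin-binding growth factors, which share that property with PTN and MDK, 12 were tested. Among them 2 rose, 7 fell and 3 were not called, with a median log2 difference of −0.67. Amphiregulin, AREG, a ligand of the EGF receptor, fell from 573 ± 25.2 to 24.6 ± 6.79, or 23.2-fold (log2 −4.52, limma adjusted p = 2.12e-11). The platelet-derived growth factors PDGFB and PDGFA fell from 514 to 103 and from 747 to 217 (log2 −2.31 and −1.78). HDGFL2 rose from 2781 to 3271 (log2 0.23) but was not called in RPKM. The number that rose was 1 without WT replicate 2, 1 without R320* replicate 3 and 0 in RPKM.

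**Figure D4:**
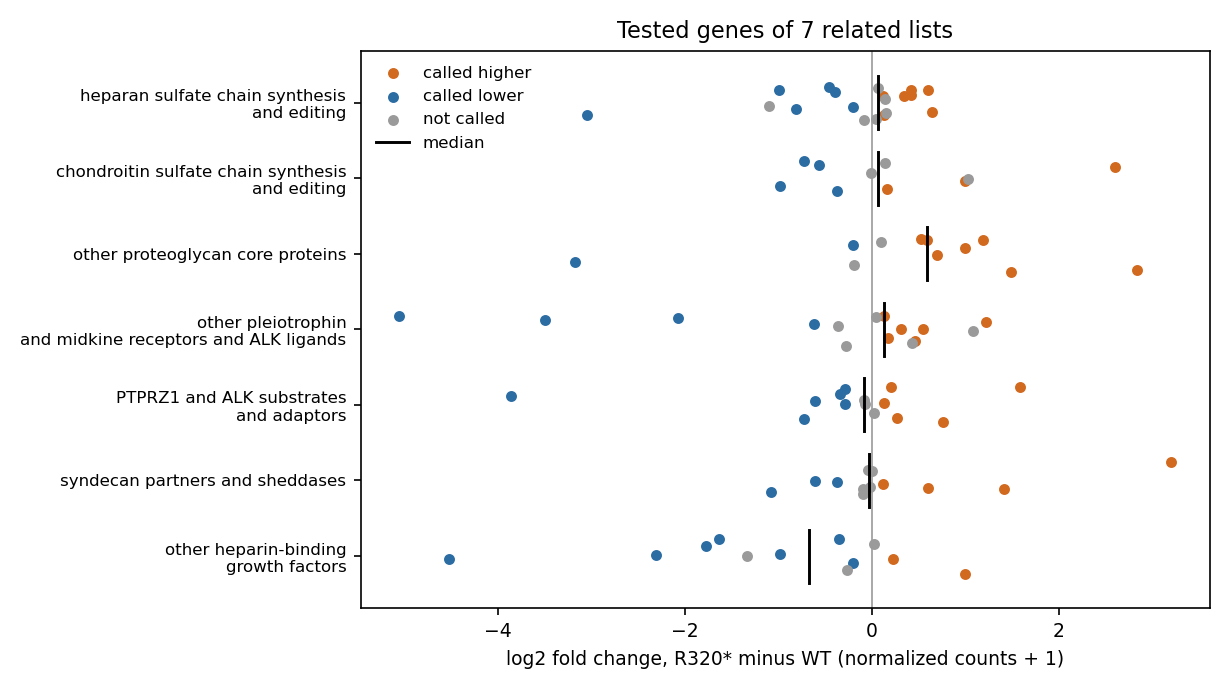
Fitted log2 differences between R320* and WT for the tested genes of the 7 lists, with 1 point per gene (orange called higher, blue called lower, grey not called) and a line at each median. The fitted value of LRP1B, the leftmost receptor point, depends on the added count because R320* is at 0. The medians run from −0.67 for other heparin-binding growth factors to 0.59 for other proteoglycan cores.

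Over the 7 lists, 93 of 135 genes were tested and 71.0% of those were called, 34 higher and 32 lower, against 53.7% of all tested genes. The lists were chosen with earlier results of these data known, so this share carries no support. By RPKM values 18 of the 79 listed genes tested there were called higher, beside 2692 of all 17769 genes tested in RPKM.

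Genes next to the family on the chromosome were measured in the same way. The 5 nearest tested genes on each side of the 8 genes gave 80 neighbours, of which 39, or 48.75%, were called, against 53.7% of all tested genes. Around PTN 8 of 10 were called, 5 higher and 3 lower, with log2 differences between −0.40 and 1.76. Around the other genes of the family the share called ran from 20% to 60%. The nearest, DGKI, a diacylglycerol kinase 37304 bases away, rose from 104 ± 11.0 to 157 ± 18.7 (log2 0.60, limma adjusted p = 0.00859) and was not called in RPKM. On the other side SLC13A4 lay 1499155 bases away and had 124 in WT and 120 in R320* (log2 −0.04, limma adjusted p = 0.854). None of the 10 neighbours of PTN reached its difference, but PTN was chosen with that difference known, so this carries no support. Next to SDC2, CPQ, a carboxypeptidase gene 33452 bases away, rose from 717 to 1368 (log2 0.93, limma adjusted p = 3.53e-09), and PTDSS1 rose by log2 0.16. Beside SDC1, PUM2 was not called (log2 −0.03) and LAPTM4A fell (log2 −0.20), a call lost without WT replicate 1 or 2 or R320* replicate 1 or 3 and in RPKM.

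The neighbour of PTPRZ1 with the largest difference was AASS, a lysine breakdown enzyme gene 11513 bases away. AASS fell from 368 ± 48.4 to 34.0 ± 8.70 normalized counts (log2 −3.42, limma adjusted p = 7.60e-10). Its mean RPKM was 3.95 in WT and 3.21 in R320*, a log2 difference of −0.31 that was not called, so the fall was called in 1 of the tables only. FAM3C, on the other side, rose by log2 0.43 and was not called in RPKM.

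**Figure D5:**
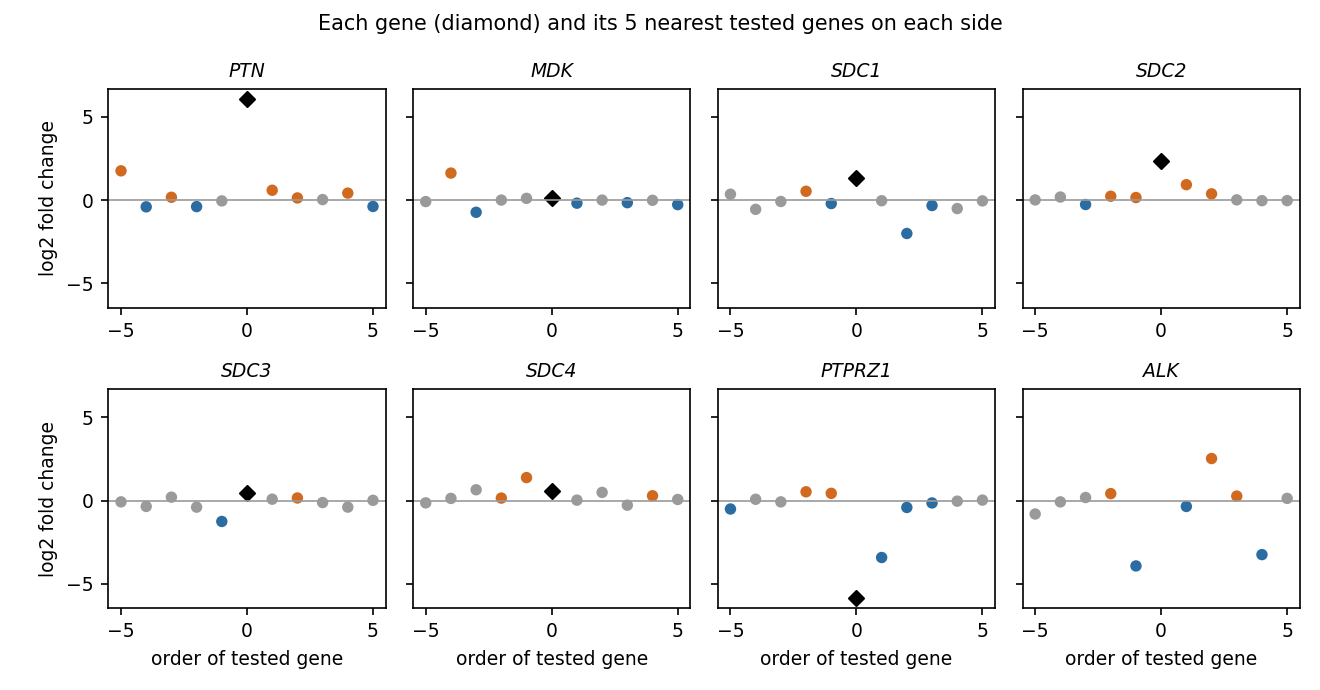
Fitted log2 differences between R320* and WT for each tested gene of the family (diamonds) and the 5 nearest tested genes on each side (orange called higher, blue called lower, grey not called), in order along the chromosome; ALK itself was not tested. No neighbour of PTN comes near its difference of 6.08, which was known when PTN was chosen. The fitted value of PTPRZ1 depends on the added count because R320* is at 0.

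Genes with a pattern most like PTN were found by Pearson's r of log2(normalized count + 1) over the 6 libraries, among 14156 tested genes with a symbol. The 5 with the highest r were CTSF, L3HYPDH, DEAF1, HSPG2 and PCSK5, and 329 genes had r over 0.99. The r is a description with no p, since the 6 points share the genotypes and 1 large step between them. HSPG2, the perlecan of the proteoglycan list, was among the 5, and CTSF, a cathepsin, had 244 ± 18.3 in WT and 555 ± 9.45 in R320*. PCSK5, a proprotein convertase, had 3.40 ± 1.20 in WT and 49.1 ± 1.35 in R320*. Its mean RPKM was only 0 in WT and 0.042 in R320*, below the filter there. Over the alternatives its log2 difference fell to as little as 0.50. Within the family r with PTN was 0.986 for SDC1, 0.964 for SDC4, 0.961 for SDC3, 0.958 for SDC2, 0.715 for MDK and −0.996 for PTPRZ1.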

How the data were processed

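RNA was sequenced from 6 libraries of K562 cells, 3 WT and 3 R320*. The submitters' processing notes name the tools HISAT2, featureCounts, Salmon and DESeq2 and the build hg38, with no versions or settings and without saying which tool made which table. The authors deposited a signal table of normalized read counts per Entrez gene, in which each library's values are whole multiples of 1 smallest value (within 1e-06), and a table of RPKM per gene. Strand use in counting is not given, so reads of overlapping genes on opposite strands cannot be told apart.

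Symbols and coordinates came from RefSeq tables for GRCh38.p14, and 27745 of 28395 Entrez identifiers matched. Normalized counts were fitted as log2(value + 1) with limma 3.58.1 in R 4.3.3 (intensity trend, Benjamini-Hochberg adjustment over 14299 genes with at least 10 normalized counts in 3 libraries, threshold 0.05). RPKM were fitted as log2(value + 0.1) for genes with at least 0.5 RPKM in 3 libraries. Read numbers were inferred from that smallest value, and floors of 3 such reads cover counting error only. Other figures used Python 3.11.15.

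The 8 genes and the 7 lists were chosen with earlier results of these data known. From each list the text names up to 3 called genes with the largest fold in each direction and a mean of at least 50 normalized counts. It also names ALKAL1, ALKAL2, LTK, LRP1, NCL, ITGAV, ITGB3 and PTPRB, the nearest tested neighbours of PTN and of each gene with a fold over 2, and the 5 genes most like PTN. Alternatives were other pseudocounts, filters, scalings and trend settings, the RPKM table, a replicate block and leaving out each library.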

Additional observations from a re-analysis of the deposited data

How the results depend on the processing

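Of 14299 tested genes 7685 were called, between 5159 and 7854 over the alternatives and between 6931 and 7314 with a library left out. No alternative turned the direction of PTN, PTPRZ1 or a syndecan. MDK was not called in the fit of normalized counts or in RPKM, where its means were equal. Over the alternatives its log2 difference ran from −0.0003 to 0.14, and whether MDK was called under the others is not given here. The log2 difference ran from 3.86 to 6.28 for PTN, from 2.06 to 2.87 for SDC2 and from 0.47 to 1.44 for SDC1. It was lowest for PTN and SDC1 in RPKM with a pseudocount of 1 and for SDC2 without WT replicate 2. Of the 135 listed genes 34 were called higher, 18 in RPKM, 18 in RPKM with a pseudocount of 1 and 19 in RPKM without a filter, and 26 to 30 with a library left out; 32 were called lower, 31 to 34 with a library left out. The 39 called neighbours became 19, 19 and 20 in the same RPKM settings, and 33 to 39 with a library left out. Fewer listed genes, 79, were tested in RPKM; beyond that the cause was not tested. CHPF turned to −0.012, −0.011 and −0.012 and EXTL1 to −0.11, −0.032 and −0.11 in those RPKM settings, and BCAN to 0.38 in RPKM without a filter; the cause was not tested. Of the 60 other named genes, 34 kept direction and call under every alternative run for them. With the replicate number as a block 7854 genes were called, 34 listed genes higher, 33 lower and 41 neighbours. The labels state no pairing by number, and deviations of same-numbered libraries correlated at 0.032, −0.0031 and −0.0033. These values show no shared deviation but cannot tell whether same-numbered libraries were prepared together. Tests on inferred reads with edgeR and DESeq2 were not run. At 1 inferred read per 0.953 to 1.05 normalized counts, the depth limits PTPRZ1 and ALK in R320* to the floor of 3 reads.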

Other observations

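BCAN was measured very differently by the deposited tables. It had 1892 ± 51.0 normalized counts in WT and 1642 ± 50.8 in R320* (SD, n = 3 each), but at most 0.987 RPKM in any library. One RPKM of BCAN stood for 4669 normalized counts, against a median of 62.7 over 12872 genes with at least 0.1 RPKM, and 2 genes, BCAN included, reached that value. RefSeq places BCAN-AS2, a long non-coding RNA, across the BCAN span.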
